A study of Homo sapiens with 5 samples.

Results

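The genes described are those of ubiquitin conjugation and removal that carry a systematic family symbol: conjugating enzymes (UBE2), HECT-type and elongating ligases (UBE3, UBE4), RING finger (RNF) and tripartite motif (TRIM) proteins, F-box substrate receptors (FBXO, FBXW, FBXL), cullins (CUL), and deubiquitinases of the USP and OTU families. Within these families genes were taken by symbol alone, and 79 of the 4202 genes in the deposited table matched. The families themselves were chosen with earlier results of these data known. Total RNA was sequenced from MDA-MB-231 cells, a triple-negative breast cancer line with mesenchymal features, after 4 h with CGI-1746, a BTK inhibitor, with LU-102, with CGI-1746 plus LU-102 (the combination), with bortezomib, or after mock treatment. LU-102 and bortezomib are known as inhibitors of the proteasome, and bortezomib is the clinically used one. Each condition has 1 library of this 1 line, no dose is given in the sources used here, and no difference below has a replicate error or a test.

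Ubiquitin is activated by an E1 enzyme, passed to an E2 conjugating enzyme and attached to a substrate with the help of an E3 ligase, which supplies the specificity. Chains of ubiquitin direct substrates to the proteasome, to VCP-driven extraction from membranes, or to signalling and DNA repair complexes, and deubiquitinases remove or edit them. Cells in which the proteasome is blocked accumulate conjugates and are known to induce proteasome subunit, chaperone and oxidative stress genes.

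Of the 79 genes, 18 were UBE2 genes, 2 were UBE3C and UBE4A, 21 were RNF, 14 were TRIM, 9 were F-box, 1 was the cullin CUL7, 10 were USP and 4 were OTU genes. Of these, 4 are pseudogenes: RNF5P1, UBE2CP5, UBE2E4P and UBE2MP1. The deposited levels behave as reads divided by the length of the whole gene, introns included, and by a factor for the library, so long genes have low levels. The table holds genes whose 5 levels sum to at least 5.04, and 75 of 362 RefSeq protein-coding genes of these families (20.7%) were in it. Their median gene length was 16750 bp, against 38958 bp for the family genes not analysed here, so the set is weighted to compact genes.

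Reads could be recovered from the levels, because the product of level and gene length came in steps of 0.5 reads, with a fixed worth of a read in each library, for 67.2% of genes under 400 reads with CGI-1746, 67.5% with LU-102, 68.3% in combination, 70.7% with bortezomib and 67.2% in mock, at a tolerance that 20% would meet by itself. The 79 genes together had 81972 reads with CGI-1746, 79474 with LU-102, 84646 in combination, 31223 with bortezomib and 84670 in mock. All 9 marker genes of the line that were looked for were listed, with summed levels of 226, 232, 249, 49.1 and 236 in the same order of libraries. None of 9 markers of blood, endothelium and luminal epithelium was listed. An expressed gene under the table's minimum sum of levels, as a long gene can be, would also be missing, so this does not show absence. In bulk RNA, fewer cells and less RNA per cell cannot be told apart. Intervals given with ratios are exact 95% Clopper-Pearson intervals from these reads and cover counting error only.

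Among the conjugating enzymes the levels differed more between genes than between libraries other than bortezomib. UBE2S, which extends chains on substrates of the anaphase-promoting complex, had levels of 11.2 with CGI-1746, 12.9 with LU-102, 13.5 in combination, 4.31 with bortezomib and 10.9 in mock. UBE2C, which starts those chains, had 10.5, 11.1, 11.7, 6.22 and 11.1 in the same order of libraries. Its bortezomib level was 0.563 of mock (0.502 to 0.630), above every other gene of its class but UBE2J2. UBE2S overlaps RPL28 and SNORD157 on chromosome 19, and whether the reads were counted by strand is not given.

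Some E2 enzymes carry other ubiquitin-like proteins. UBE2M, which conjugates NEDD8 to cullins, had 9.76 with CGI-1746, 10.8 with LU-102, 11.7 in combination, 2.93 with bortezomib and 11.5 in mock. UBE2Z, which takes ubiquitin or FAT10 from UBA6, had 5.27, 5.47, 5.78, 2.97 and 6.14 in that order. Both were lower with bortezomib than in mock on the deposited scale, at ratios of 0.254 for UBE2M and 0.483 for UBE2Z. The median ratio of all genes was 0.324, so UBE2M stood at 0.78 times and UBE2Z at 1.49 times that value. With CGI-1746 UBE2M was the lowest of the class at a log2 ratio of -0.22 on log2(level + 1), and UBE2Z stood at -0.19, beside a class median of -0.09.

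TRIM28, a corepressor of KRAB zinc finger proteins, had the highest level of all 79 genes in every library except bortezomib, where RNF5 stood above it: 40.4 with CGI-1746, 39.6 with LU-102, 45.1 in combination, 13.4 with bortezomib and 38.4 in mock. RNF26, a RING protein of the endoplasmic reticulum, had 19.4, 22.0, 22.3, 5.70 and 21.3 in the same order. In both ligases the bortezomib library was the low one. Among deubiquitinases USP22, a subunit of the SAGA coactivator that acts on histones, was highest in every library except bortezomib, where USP1 stood above it, with 6.83, 6.70, 6.87, 2.18 and 7.06. USP1, which acts on FANCD2 and PCNA, had 6.28, 5.65, 5.90, 2.71 and 6.52. In both deubiquitinases, too, the bortezomib library was low and the other 4 lay close together.

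CGI-1746 was compared with mock to ask what the BTK inhibitor does alone. None of 78 genes of the family passed a log2 ratio of 0.32 on log2(level + 1) in either direction, the limit used for the comparisons without bortezomib, where 1.53% of all 4186 genes compared were higher by that much and 0.836% lower. The family median was -0.05 and that of all genes -0.02. The extremes were FBXO27, a glycoprotein-binding F-box protein, at 0.24 and the pseudogene RNF5P1 at -0.27; FBXO27 lies under the level of 2 set for named genes and was chosen after its value was seen. Of the ratios, 9 had a counting interval wholly above 1 and 16 one wholly below, 11.5% and 20.5% of the genes, against 11.4% and 22.9% of all genes.

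LU-102 against mock gave the same small size of difference. No gene of 79 was higher by 0.32 or more (2.03% of all genes), and 1 was lower (1.43% of all genes), the pseudogene UBE2E4P at -0.37 with 71.5 reads with LU-102 against 97.5 in mock. The family median was -0.05 and the all-gene median -0.06. The highest were the pseudogene UBE2MP1 at 0.23 and UBE2S at 0.22. Among the low protein-coding genes were RNF14, an RBR ligase, at -0.27 and RNF103 of the endoplasmic reticulum at -0.26. Counting intervals lay wholly above 1 for 5 ratios (6.33%, against 11.8% of all genes) and wholly below for 29 (36.7%, against 37.3%). RNF103 is outside the rule for named genes and was chosen after its value was seen.

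With CGI-1746 plus LU-102 the family again lay near mock, with a median of 0.01 beside 0.03 over all genes, which median-of-ratios scaling turned to -0.07 and -0.04. FBXL6, an F-box protein, was the 1 gene higher by 0.32 or more (5.42% of all genes), and none was lower (1.38% of all genes). FBXL6 had levels of 2.07 with CGI-1746, 2.46 with LU-102, 3.19 in combination, 0.924 with bortezomib and 2.12 in mock. Its ratio to mock was 1.5 (1.17 to 1.93) from 165 reads in combination against 109 in mock. FBXW5, a substrate receptor of SCF and CUL4 complexes, followed at 0.30, and RNF5, an endoplasmic reticulum ligase, also at 0.30, while OTUD4, a deubiquitinase, was among the low ones at -0.23. Of the 79 ratios, 18 had a counting interval wholly above 1 (22.8%, against 29% of all genes) and 16 one wholly below (20.3%, against 19.7%). After removal of the median of genes of like transcript GC content the FBXL6 value was 0.22, below the limit of 0.32.

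**Figure D1:**
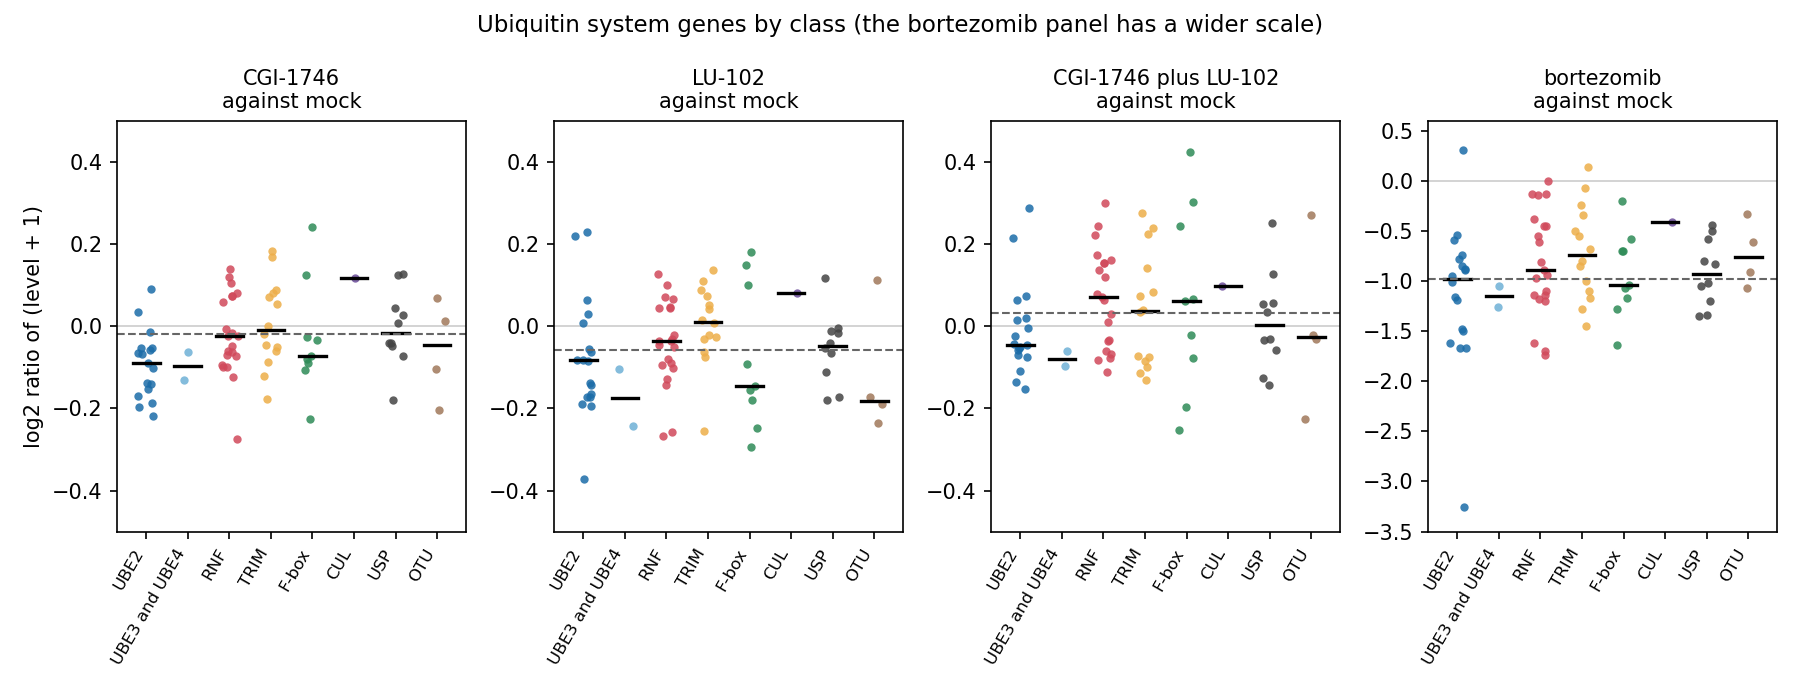
Log2 ratio of (level + 1) for each gene by class, with 1 panel per treatment against mock and a wider scale for bortezomib; bars are class medians, the dashed line is the median of all genes, and each condition has 1 library. The points of the first 3 panels lie between -0.37 and 0.42, while the class medians with bortezomib lie between -1.15 and -0.41.

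By class, 14 of 17 UBE2 genes lay below the median of all genes with CGI-1746, 12 of 18 with LU-102 and 14 of 18 in combination. Of the 14 TRIM genes, 7, 3 and 6 lay below it in the same order. Of 9 F-box genes 7, 6 and 4 did, of 21 RNF genes 12, 8 and 9, and of 10 USP genes 5, 4 and 5. Of 4 OTU genes 2, 3 and 3 did. UBE3C and UBE4A lay below it each time and CUL7 above it. By definition as many of all genes lie below the median as above it. These counts describe single libraries and were not tested.

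The combination was set against each agent alone to ask what the second agent adds. Against LU-102 none of 79 genes reached 0.32 either way (3.01% of all genes higher, 0.978% lower), with RNF5 and UBE2E4P just under the unrounded limit, and the median was 0.09 beside 0.08 over all genes. Against CGI-1746, 4 genes were higher (3.39% of all genes) and none lower (0.668%), with a median of 0.06 beside 0.04. The 4 were RNF5P1 at 0.50, FBXL6 at 0.45, UBE2CP5 at 0.41 and RNF5 at 0.37. The counting interval of the UBE2CP5 ratio held 1 (0.986 to 2.40, from 55 reads in combination against 36 with CGI-1746). Those of RNF5P1, FBXL6 and RNF5 lay wholly above 1. Both comparisons use the same combination library, and median-of-ratios scaling turned these family medians to -0.01 against LU-102 and -0.05 against CGI-1746, with all genes at -0.02 and -0.06.

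Of these 4, RNF5 had the most reads. It had levels of 16.9 with CGI-1746, 17.6 with LU-102, 22.2 in combination, 16.3 with bortezomib and 17.8 in mock. The combination was 1.24 times mock (1.13 to 1.37), while the counting intervals of both agents alone held 1. RNF5P1, a processed copy on chromosome 8, had 4.91, 6.37, 7.33, 6.16 and 6.15 in the same order. The copy is 98.9% identical to RNF5 over 540 bases, and the recovered reads of RNF5 were not whole in any library, so the split of reads between RNF5 and RNF5P1 is uncertain.

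The small differences ran with base composition. For the 75 protein-coding genes, the log2 ratio of LU-102 to mock had a Spearman correlation of 0.78 with the GC content of the transcript, against 0.70 over 3859 protein-coding genes. For the combination against mock the values were 0.70 and 0.62, for CGI-1746 (74 genes of the family) 0.40 and 0.38, and for bortezomib 0.31 and 0.29. The genes of each correlation share the same pair of libraries. In the 25 genes of lowest GC content (34.4 to 45.4%) the median with LU-102 was -0.17 and 0 of 25 lay above 0, while in the 25 of highest GC content (56.0 to 66.4%) it was 0.06 and 17 of 25 did. AT-rich FBXO5 and OTUD4 stood at the low end and GC-rich FBXW5, OTUB1 and USP19 at the high end. The part of GC content in these values was not tested.

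**Figure D2:**
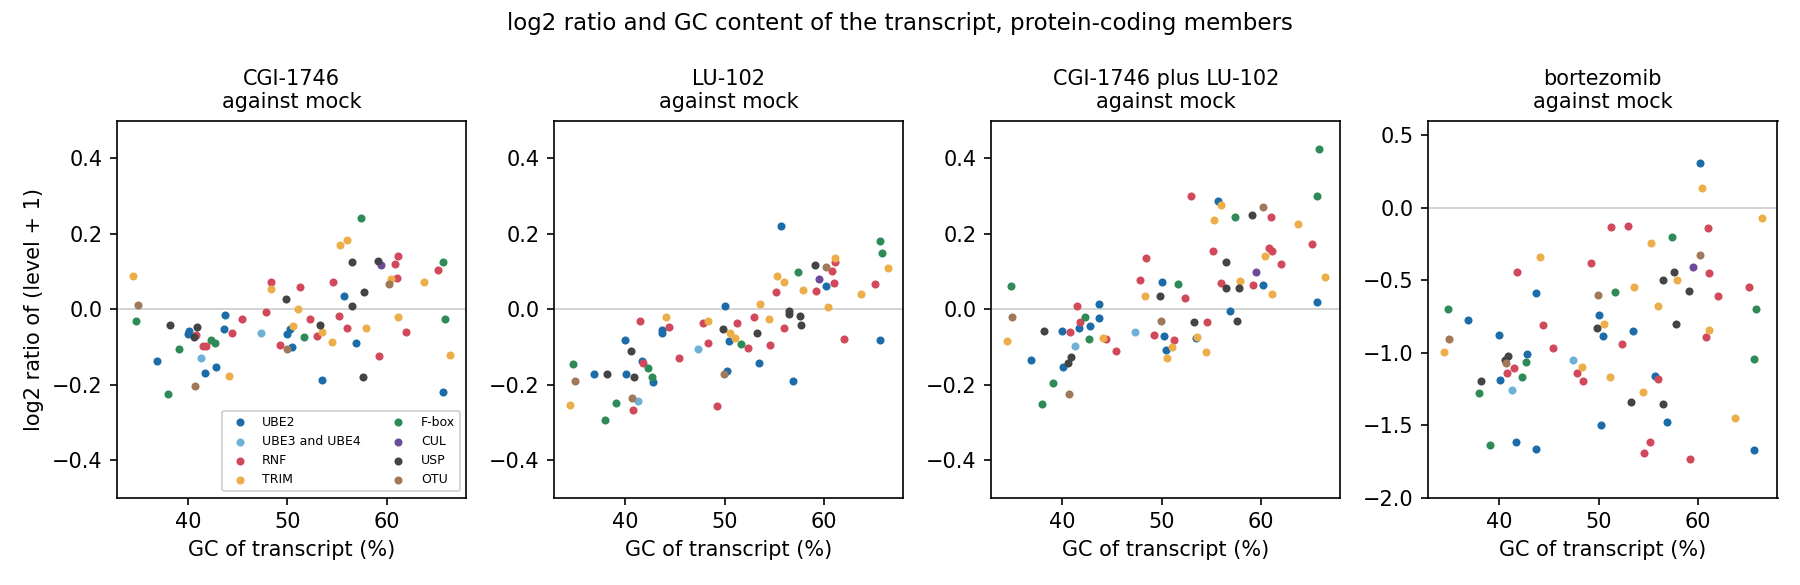
Log2 ratio of (level + 1) to mock against the GC content of the longest transcript in percent, 1 point per protein-coding gene and 1 panel per treatment, with a wider scale for bortezomib. The points run upward most steadily in the LU-102 panel, where the Spearman correlation is 0.78 over 75 genes.

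Bortezomib was compared with mock in the same way, and here nearly the whole family was lower on the deposited scale. Of 79 genes, 34 were lower by 2-fold on log2(level + 1) (43.0%, against 48.1% of all 4189 genes) and none was higher (1.38% of all genes). With median-of-ratios scaling 7 were lower, and after centring on protein-coding genes 1 was lower and 2 were higher. On plain levels 57 of 79 (72.2%) stood at 0.5 of mock or less, beside 72.4% of all genes, and the median ratio was 0.344 beside 0.324. The shares of the family thus lay near those of the whole table. Reads of the 4 listed genes of the 45S ribosomal RNA precursor made up 69.9% of the reads of listed genes with bortezomib, against 5.17% in mock, and protein-coding genes held 2582474 reads with bortezomib, against 7103677 in mock. The part of this composition in the lower levels was not tested. As a share of protein-coding reads the 75 protein-coding genes of the family took 1.17% with CGI-1746, 1.17% with LU-102, 1.17% in combination, 1.20% with bortezomib and 1.18% in mock. The all-gene median ratio of 0.324 is the value to read the ratios below against.

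By class, the median log2 ratios with bortezomib were -0.98 for UBE2, -1.15 for UBE3C and UBE4A, -0.89 for RNF, -0.74 for TRIM, -1.04 for F-box, -0.92 for USP and -0.76 for OTU genes, with CUL7 at -0.41 and all genes at -0.98. The ranges of the classes of 4 or more genes overlapped. These medians are on log2(level + 1), where the added 1 shrinks the ratios of genes of low level most. On plain levels the class median ratios were 0.294 for UBE2, 0.208 for UBE3C and UBE4A, 0.328 for RNF and 0.411 for TRIM genes. They were 0.410 for F-box, 0.362 for USP and 0.362 for OTU genes, beside 0.324 for all genes. F-box genes thus lay under all genes on the first scale and above them on the second. CUL7, a scaffold of growth-related ligases, had 3.31 with CGI-1746, 3.21 with LU-102, 3.25 in combination, 2.0 with bortezomib and 2.97 in mock, a ratio of 0.672 (0.604 to 0.747), or 2.07 times the all-gene median ratio.

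**Figure D3:**
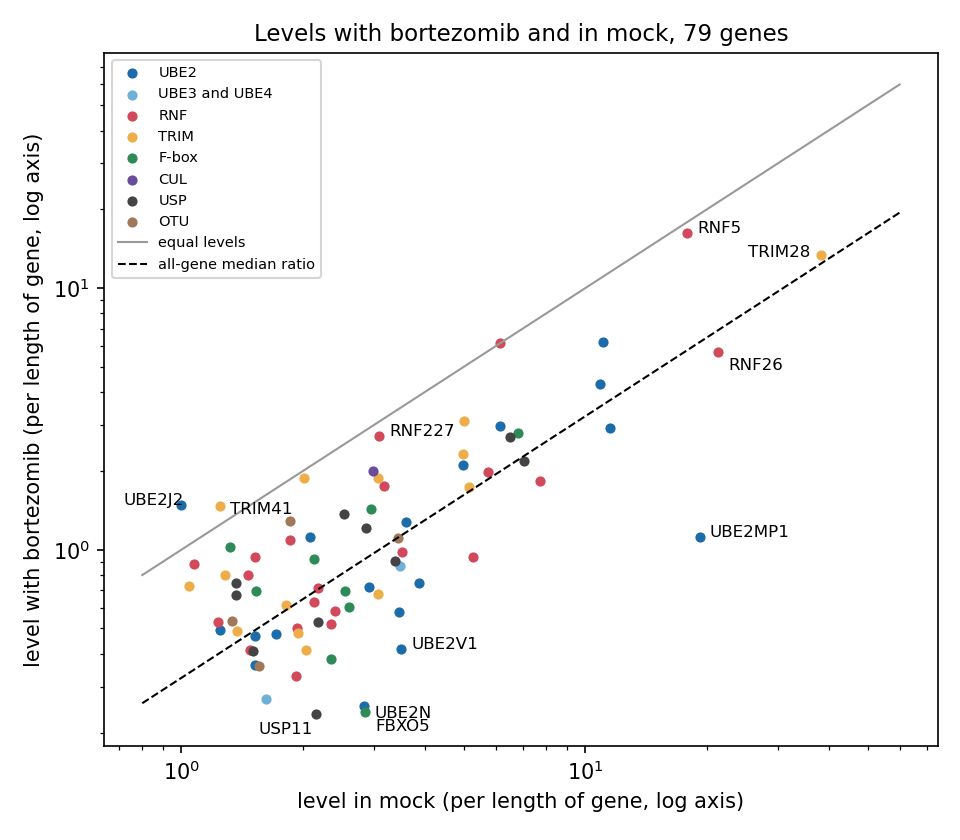
Level with bortezomib against level in mock for the 79 genes on log axes, coloured by class; the solid line marks equal levels and the dashed line the all-gene median ratio of 0.324. UBE2J2 and TRIM41 lie above the solid line, RNF5P1 on it and RNF5 just under it, while UBE2MP1, FBXO5, UBE2N, USP11 and UBE2V1 lie far below the dashed line.

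UBE2J2, a tail-anchored E2 enzyme of endoplasmic reticulum-associated degradation (chr1:1253912-1273854), was the 1 gene of the family whose counting interval lay wholly above 1 with bortezomib. It had levels of 0.906 with CGI-1746, 1.09 with LU-102, 1.09 in combination, 1.48 with bortezomib and 0.998 in mock. The ratio was 1.48 (1.29 to 1.70) from 548 reads with bortezomib against 335 in mock, or 4.57 times the all-gene median ratio. Its partner in the same pathway, UBE2J1, had 2.75, 2.47, 2.52, 0.719 and 2.91 in that order, a ratio of 0.247 (0.219 to 0.278). TRIM41, a RING ligase (chr5:181223281-181235808), had 1.38, 1.26, 1.48, 1.47 and 1.247, and its ratio of 1.18 had an interval from 1.0 to 1.39. UBE2J2 and TRIM41 lie under the level of 2 set for named genes and were chosen after their values were seen.

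Counting intervals of the bortezomib ratio lay wholly below 1 for 72 of 79 genes (91.1%, against 89.5% of all genes) and wholly above for 1, UBE2J2 (1.27%, against 5.32%). The interval held 1 for 6 genes: TRIM41, RNF5P1 (1.0), TRIM47 (0.930), RNF5 (0.912), RNF227 (0.882) and RNF166 (0.825), of which RNF166 was also chosen after its value was seen. RNF227 had 3.26 with CGI-1746, 2.99 with LU-102, 2.87 in combination, 2.73 with bortezomib and 3.09 in mock, from 146 to 166 reads. TRIM47, a RING ligase, had 1.77, 2.25, 2.20, 1.87 and 2.02, from 133 to 170 reads. Its neighbour on chromosome 17, TRIM65, which has been tied to MDA5 signalling, had a ratio of 0.613 (0.552 to 0.680). Over the all-gene median ratio, TRIM41 stood at 3.63, TRIM47 at 2.87, RNF5 at 2.81 and RNF227 at 2.72. Over the all-gene median on log2(level + 1), UBE2J2 and TRIM41 were the 2 genes of the family higher by 2-fold (7.52% of all genes), and UBE2MP1 the 1 lower (7.83%).

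The lowest ratios with bortezomib included a pair that builds K63-linked chains in NF-kappaB signalling. UBE2N, the catalytic partner (chr12:93405684-93441947), had levels of 2.41 with CGI-1746, 2.49 with LU-102, 2.71 in combination, 0.254 with bortezomib and 2.84 in mock, a ratio of 0.0893 (0.0759 to 0.105) from 171 reads with bortezomib against 1734 in mock. UBE2V1, its inactive cofactor (chr20:50081124-50115957), had 3.34, 3.31, 3.43, 0.418 and 3.51, a ratio of 0.119 (0.105 to 0.135). Relative to the all-gene median ratio, UBE2N stood at 0.28 and UBE2V1 at 0.37. UBE2N overlaps NUDT4, and UBE2V1 lies in the readthrough gene PEDS1-UBE2V1, so some of their reads may belong to those genes.

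FBXO5, the inhibitor of the anaphase-promoting complex also called EMI1 (chr6:152970535-152983579), had 2.58 with CGI-1746, 2.24 with LU-102, 2.36 in combination, 0.239 with bortezomib and 2.85 in mock. Its ratio with bortezomib was 0.0839 (0.0630 to 0.110), from about 58 reads with bortezomib against 626 in mock. USP11, a deubiquitinase of BRCA2 and other repair proteins (chrX:47233009-47248328), had 2.44, 2.13, 2.28, 0.235 and 2.16, a ratio of 0.109 (0.0834 to 0.141). Over the all-gene median ratio FBXO5 stood at 0.26 and USP11 at 0.34. In FBXO5 and USP11 the bortezomib library lay far below the other 4. FBXO5 was also below mock with LU-102, at 0.786 (0.697 to 0.885), and in combination, at 0.828 (0.736 to 0.931). USP11 was slightly above mock with CGI-1746, at 1.13 (1.01 to 1.27).

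The pseudogene UBE2MP1 had the lowest ratio of the family, 0.0583 (0.0352 to 0.0918) or 0.18 times the all-gene median ratio, with levels of 20.5 with CGI-1746, 22.7 with LU-102, 18.5 in combination, 1.12 with bortezomib and 19.2 in mock. It is 97.1% identical over 550 bases to UBE2M, whose ratio was 0.254 (0.212 to 0.304), and the split of reads between UBE2M and UBE2MP1 is uncertain. RNF113A, a splicing-linked RING protein encoded by 1 exon, had a ratio of 0.178 (0.107 to 0.283) from 22 reads with bortezomib against 112 in mock, and RNF26, also of 1 exon, one of 0.268 (0.234 to 0.305).

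**Figure D4:**
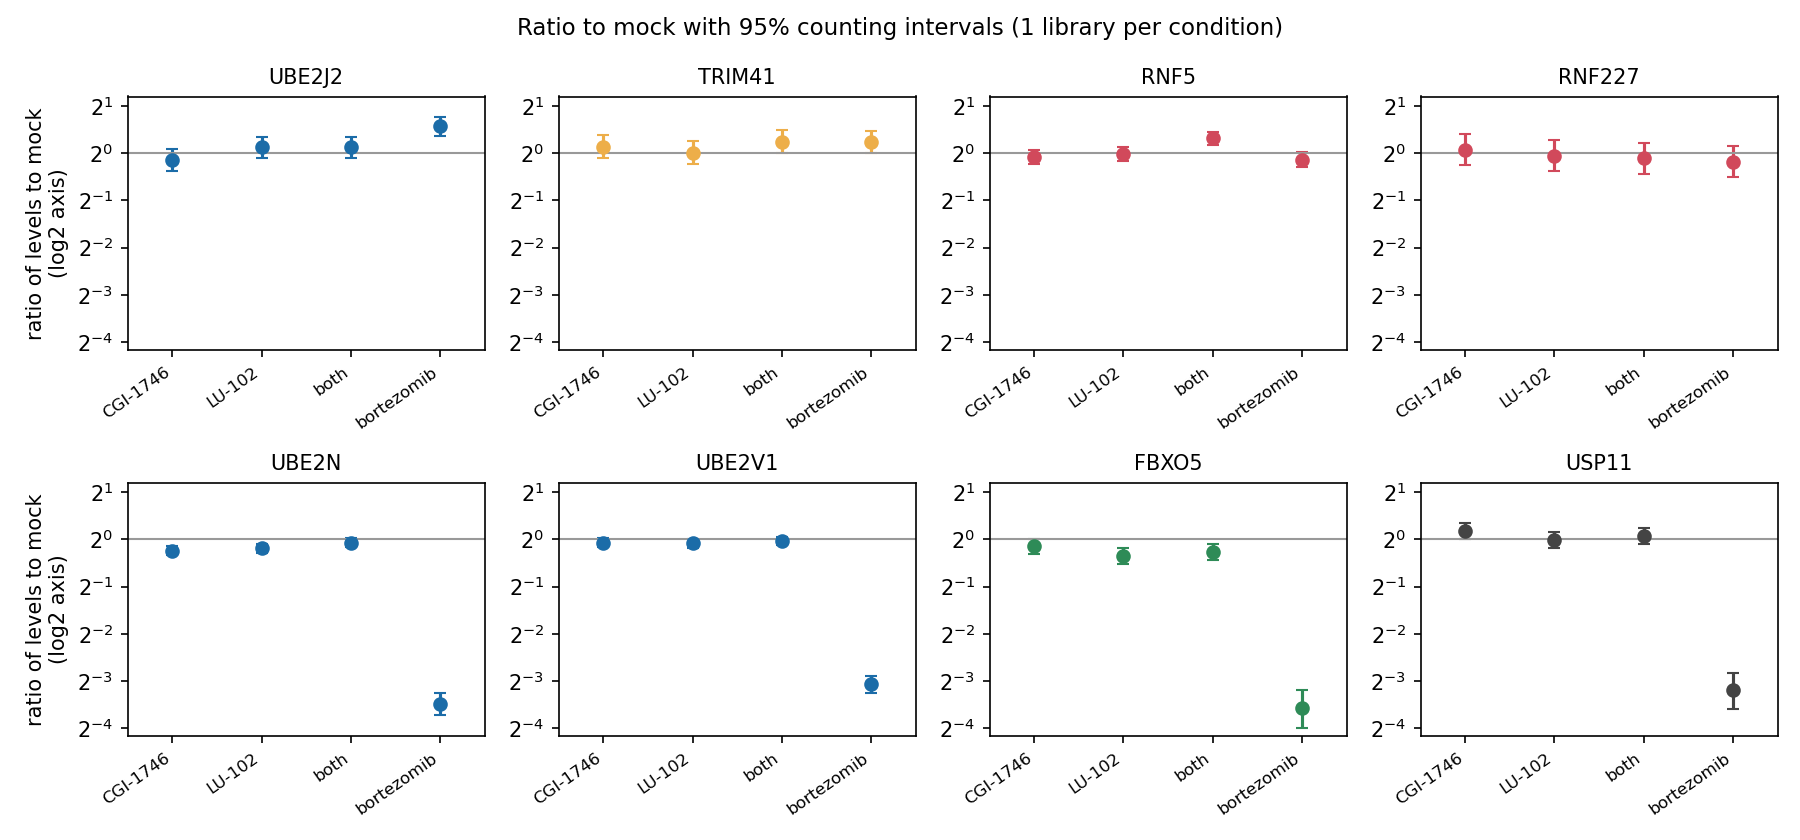
Ratio of levels to mock on a log2 axis for 8 genes, with 95% counting intervals, for CGI-1746, LU-102, the combination (both) and bortezomib (1 library each). In the upper row the bortezomib ratio lies at 0.882 to 1.48 and in the lower row at 0.0839 to 0.119. The other treatments lie between 0.786 (FBXO5 with LU-102) and 1.24 (RNF5 in combination).

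The OTU deubiquitinases and the remaining RING ligases showed how the bortezomib ratios spread around the bulk. OTUB1, which binds and blocks UBE2N and other E2 enzymes, had levels of 2.0 with CGI-1746, 2.09 with LU-102, 2.45 in combination, 1.28 with bortezomib and 1.86 in mock. OTUD4, tied to alkylation repair, had 2.86, 2.78, 2.80, 1.11 and 3.45 in that order. Their bortezomib ratios were 0.689 (0.588 to 0.805) for OTUB1 and 0.323 (0.300 to 0.347) for OTUD4, or 2.13 and 0.99 times the all-gene median ratio, so OTUB1 kept more of its mock level than UBE2N, the enzyme it binds. RNF31, the catalytic subunit of the linear chain assembly complex, had 1.72, 1.69, 1.74, 0.803 and 1.46, a ratio of 0.549 (0.459 to 0.654). RNF114, a RING ligase induced by interferon, had 3.76, 3.25, 3.97, 0.978 and 3.52, a ratio of 0.277 (0.244 to 0.315).

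RNF181, a small RING ligase, had 7.61 with CGI-1746, 7.99 with LU-102, 8.69 in combination, 1.83 with bortezomib and 7.71 in mock, a ratio of 0.238 (0.179 to 0.312). UBE3C, a HECT ligase that acts at the proteasome, had 1.51, 1.44, 1.52, 0.269 and 1.62, a ratio of 0.166 (0.152 to 0.180). UBE2A, the partner of RAD18 in PCNA ubiquitination, had 3.14, 3.02, 3.46, 1.28 and 3.60, a ratio of 0.356 (0.305 to 0.414). UBE3C thus lay under the all-gene ratio of 0.324 and UBE2A near it. TRIM8, a RING ligase, had 4.90, 5.57, 5.15, 2.33 and 4.98, and FBXO30, an F-box protein, had 2.86, 2.57, 3.12, 1.43 and 2.95. FBXW5 had 7.50, 7.85, 8.61, 2.79 and 6.80 in the same order.

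By role, the bortezomib values spread to both sides of the all-gene median. Of 6 cell cycle genes 4 were lower by 2-fold (RNF26, UBE2S, FBXO5 and USP22), of 8 DNA damage genes 5, of 9 endoplasmic reticulum genes 2 and of 5 interferon-linked genes 2, beside 48.1% of all genes. Their medians were -1.25, -1.02, -0.89 and -0.67 in that order, with all genes at -0.98. These values are on log2(level + 1) and so depend on level as well. UBE2S passed at a plain ratio of 0.396 and a mock level of 10.9, while UBE2T did not at 0.398 and 1.24. The endoplasmic reticulum genes UBE2G2, TRIM59 and RNF145 did not pass either, at plain ratios of 0.239, 0.246 and 0.260. On plain levels 72.4% of all genes stood at 0.5 of mock or less. RNF26 was the lowest of the cell cycle group on log2(level + 1), at -1.73 beside -1.64 for FBXO5. On plain levels FBXO5 was far lower, at a ratio of 0.0839 against 0.268 for RNF26. RNF26 is a protein of the endoplasmic reticulum but was counted under cell cycle only. UBE2T was counted under both cell cycle and DNA damage. Among the endoplasmic reticulum genes USP19, a membrane-anchored deubiquitinase, had 2.86 with CGI-1746, 2.83 with LU-102, 3.20 in combination, 1.37 with bortezomib and 2.53 in mock. UBE4A, an elongating ligase, had 3.08, 2.77, 3.17, 0.869 and 3.47 in that order. Of the interferon-linked ligases TRIM56, which acts in cytosolic nucleic acid sensing, had 4.76, 5.06, 4.71, 3.11 and 5.0, and TRIM25, which activates RIG-I, had 5.16, 4.85, 4.75, 1.74 and 5.16.

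Other genes of the pathway, taken from lists of E1 enzymes, HECT ligases, further RING ligases, cullin adaptors, the anaphase-promoting complex, other deubiquitinases and VCP cofactors, differed little from mock without bortezomib. Past 0.32 were only ENC1, a cullin 3 adaptor, at -0.39 with CGI-1746 and -0.49 with the combination, and SQSTM1, the autophagy receptor p62, at 0.39 with the combination. ENC1 was 1 of 33 cullin adaptors and regulators, and SQSTM1 1 of 22 VCP and shuttle genes. Of all genes, 0.836% were lower by that much with CGI-1746. With the combination 1.38% of all genes were lower and 5.42% higher. With bortezomib 2 of 5 E1 genes, 2 of 5 HECT ligases, 10 of 19 RING ligases, 20 of 33 cullin adaptors and regulators, 5 of 7 genes of the anaphase-promoting complex, 6 of 8 deubiquitinases and 12 of 22 VCP and shuttle genes were lower by 2-fold, beside 48.1% of all genes, with COPS5 and COPS6 counted both among cullin regulators and deubiquitinases. These counts, too, depend on level through the added 1. VHL, the von Hippel-Lindau substrate receptor, was the 1 gene of these lists higher by 2-fold (1.38% of all genes), at a level of 13.0 with bortezomib against 3.22 in mock. COPS6, a subunit of the COP9 signalosome, was lowest at 0.969 with bortezomib against 16.9 in mock, and SQSTM1 stood at 10.5 with bortezomib against 8.81 in mock.

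Promoters were searched for elements of stress-linked factors and for the CCAAT box. Of the 79 genes, 63 had a promoter in the RefSeq table for GRCh38.p14, each 250 bases before to 50 after the gene's start, and 27305 promoters served as background. The heat shock elements TTCNNGAA and GAANNTTC were each in 2 of 63 promoters (3.17%), against 7.84% and 6.87% of all promoters, both strands counted. The antioxidant response core TGACNNNGC was in 15 (23.8%, against 13.6%), the cyclic AMP element TGACGTCA in 3 (4.76%, against 1.98%) and CCAAT in 25 (39.7%, against 35.7%). A match describes letters only, no match says only that these letters are not in the window, and these motifs can overlap in a promoter. Promoters are shown for the gene highest with bortezomib, for RNF5, which stood near its mock level as deposited, and for UBE2N and its cofactor UBE2V1. Capitals mark CCAAT on either strand, and lower case throughout means that none of the 5 motifs was found. The windows are UBE2J2 at chr1:1273805-1274104, minus strand, RNF5 at chr6:32178155-32178454, plus strand, UBE2N at chr12:93441898-93442197, minus strand, and UBE2V1 at chr20:50113101-50113400, minus strand, around a start inside the span of the gene.
UBE2J2: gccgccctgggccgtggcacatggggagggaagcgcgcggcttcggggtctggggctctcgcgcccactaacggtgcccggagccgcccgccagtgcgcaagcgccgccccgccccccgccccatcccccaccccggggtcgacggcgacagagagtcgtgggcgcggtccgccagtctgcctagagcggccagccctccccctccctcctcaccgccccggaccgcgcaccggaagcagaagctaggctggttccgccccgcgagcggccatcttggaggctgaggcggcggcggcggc
RNF5: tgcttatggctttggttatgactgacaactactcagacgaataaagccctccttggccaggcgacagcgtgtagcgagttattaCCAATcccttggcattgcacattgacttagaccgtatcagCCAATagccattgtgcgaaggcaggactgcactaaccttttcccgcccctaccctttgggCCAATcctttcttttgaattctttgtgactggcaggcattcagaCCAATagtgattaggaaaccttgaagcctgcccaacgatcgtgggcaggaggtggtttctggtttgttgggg
UBE2N: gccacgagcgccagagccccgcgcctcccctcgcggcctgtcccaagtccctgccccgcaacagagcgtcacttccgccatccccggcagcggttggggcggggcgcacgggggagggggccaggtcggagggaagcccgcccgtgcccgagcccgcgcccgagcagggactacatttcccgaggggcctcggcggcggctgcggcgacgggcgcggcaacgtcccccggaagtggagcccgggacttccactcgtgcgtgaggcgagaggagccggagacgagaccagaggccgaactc
UBE2V1: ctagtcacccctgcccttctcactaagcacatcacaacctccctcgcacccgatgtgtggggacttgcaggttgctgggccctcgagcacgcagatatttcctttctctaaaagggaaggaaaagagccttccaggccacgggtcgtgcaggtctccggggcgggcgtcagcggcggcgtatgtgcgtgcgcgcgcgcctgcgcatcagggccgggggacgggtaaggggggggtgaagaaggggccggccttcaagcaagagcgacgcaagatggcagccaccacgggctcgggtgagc
RNF5 holds 4 CCAAT boxes at a GC content of 49.7%, while the windows of UBE2J2, UBE2N and UBE2V1 have 77.3%, 75.3% and 65.0% and none of the searched letters.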

How the data were processed

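RNA of 5 samples, 1 per condition, went through a Qiagen column kit and paired-end total RNA sequencing, per the labels' protocols. The submitters' processing notes name Partek and hg38; no aligner, annotation, strand, filter or version is given in the sources used here. The authors deposited, per the file headers, least squares means: a signal for each gene in each library, on a scale that is not named. A total column deposited by the authors equals the sum of the 5 levels, and 7 further columns repeat a library with identical values; no column of another sample was used.

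Level times RefSeq gene length (GRCh38.p14, 4187 of 4202 symbols matched) was for most genes a multiple of 0.5 reads, which gave implied libraries of 16998073 reads with CGI-1746, 17081041 with LU-102, 16993316 in combination, 18598069 with bortezomib and 16839882 in mock. Reads were whole within 0.1 of a step of 0.5 reads in all 5 libraries for 41 of the 79 genes; the others keep estimated reads, and 35 overlap another RefSeq gene.

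Libraries were compared on log2(level + 1) where either library had a level of 1 or more, and counted past 0.32, or past 2-fold for bortezomib. With 1 library per condition no test across genes was run. The family and the lists were chosen with earlier results of these data known. Named were the 8 genes with the highest and the 8 with the lowest ratio to mock at levels of 2 or more. So were the 3 highest and 3 lowest of the combination against each agent. Also named were the 2 of each class with the highest mean level, which is per gene length and not a ranking by reads. Up to 4 of each role group by mean level, and the ends of each list of other pathway genes, were added. Alternatives were a pseudocount of 0.1 or 0, no filter, median-of-ratios scaling (genes with levels of at least 5), centring on protein-coding genes, leaving out pseudogenes, and an adjustment for transcript GC in 20 bins. GC content and exons came from GENCODE 29. Results of some genes are not reported here. The fold rule was tested on simulated data, with an outcome that is not reported here. Calculations ran in Python 3.11.15 (scipy 1.17.1, Biopython 1.88, pandas 2.3.3, numpy 2.4.6, matplotlib 3.10.9).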

Additional observations from a re-analysis of the deposited data

How the results depend on the processing

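No paired analysis was possible because each condition has 1 library, and for the same reason no replicate could be left out. The family median less the all-gene median lay between -0.04 and -0.01 with CGI-1746, between 0.00 and 0.01 with LU-102, between -0.03 and -0.02 in combination and between 0.05 and 0.09 with bortezomib over all 7 alternatives and the main setting. Counts past a fold limit depended on the pseudocount and on the scaling. Without bortezomib the main counts were 0 higher and 0 lower with CGI-1746, 0 and 1 with LU-102, and 1 and 0 with the combination. With a pseudocount of 0.1 there was 1 higher with CGI-1746, 6 lower with LU-102, and 8 higher and 1 lower with the combination. With a pseudocount of 0, a choice made like the GC adjustment and the omission of pseudogenes after the data were seen, 1 was higher and 4 lower with CGI-1746, 8 lower with LU-102, and 8 higher and 1 lower with the combination. The gene lower with LU-102 was lost (0) after centring on protein-coding genes, without pseudogenes and after the GC adjustment, and the gene higher with the combination was lost (0) after the GC adjustment. With bortezomib the 34 genes lower by 2-fold became 55 with a pseudocount of 0.1, 57 with 0, 7 with median-of-ratios scaling, 1 after centring and 2 after the GC adjustment; 2 were higher after centring and 1 after the GC adjustment. Median-of-ratios scaling moved the all-gene median with bortezomib to -0.44 from the deposited -0.98 and the family median to -0.38 from -0.89, and it turned the all-gene median with CGI-1746 to 0.01 from -0.02, with the family at -0.02. Genes with few reads (36 to 55 for UBE2CP5 without bortezomib) have wide counting intervals, and no replicate shows the spread between samples. Of the log2 ratios of single named genes, none that passed the fold limit changed sign; 14 moved past their counting interval and 62 did not under median-of-ratios scaling, 16 and 60 after centring, 22 and 49 after the GC adjustment, 8 and 68 with a pseudocount of 0.1, 12 and 64 with 0, and none without the filter.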
